A study of Homo sapiens with 2 samples.

Results

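Centromeric and pericentromeric regions were taken as the accessible regions whose summit lay in 17 spans of hg38, 1 around the centromere of each of chromosomes 1 to 12 and 16 to 20. The spans were between 3.1 and 6.2 Mb long and made up 73.6 Mb. They held 1923 of the 595426 peaks in both lists, 1190 of 299673 in hTBLC and 733 of 295753 in primed. Once peaks that overlapped or touched within 1 library had been joined, 1034 of 250859 hTBLC regions and 605 of 242009 primed regions lay in the spans. No measured value entered the choice of the spans.

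Centromeres are the chromosomal sites where kinetochores attach to the spindle. Human centromeres are built on arrays of alpha satellite DNA, on which nucleosomes that contain the histone variant CENP-A mark the kinetochore site. The neighbouring pericentromeric chromatin is rich in satellites and segmental duplications and is largely kept as constitutive heterochromatin, with methylated histone H3 lysine 9 and HP1 proteins. In hg38 the arrays are represented by modelled sequence, in which a read can match many near-identical copies. The sources used here do not say how such reads were treated, and their part in the results below was not tested.

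Chromatin accessibility was measured by ATAC-seq, in which a transposase cuts and tags open DNA. Both libraries came from WIBR3, a human embryonic stem cell line, from 50000 living cells each. The hTBLC library is from cells that the study names human totipotent blastomere-like cells, which are obtained by repressing the spliceosome, and the primed library is from the conventional state of the same line. The sources used here name neither the agent, its dose and duration nor the culture media. Because each state has 1 library of 1 line, there is no replicate check, no test was made across the states, and intervals cover counting error only. Gene ends of 9 stem cell markers held a region in both libraries at 8 and in primed alone at 1, so the list was open at 8 of 9 in hTBLC and at 9 of 9 in primed. For fibroblast or feeder markers, 5 of 8 gene ends held a region in both libraries, 2 in hTBLC alone and 1 in neither. All 5 trophectoderm markers were open in both libraries. For endoderm markers, 4 of 5 were open in both and 1 in hTBLC alone. At 7 matched stem cell markers the median ratio was 0.814, with 2 above 1 and intervals below 1 at 3 and above 1 at 1. At the 5 trophectoderm markers it was 0.727, with 1 above 1 and intervals below 1 at 2 and above 1 at 0. At 5 fibroblast or feeder markers it was 1.087, with 4 above 1 and intervals above 1 at 2 and below 1 at 1. The 2 matched endoderm markers had 0.9755 and 1.027. Over the protein-coding genes of the whole series, 2.95% had gene ends open in hTBLC alone and 3.34% in primed alone. At matched gene ends of the whole series the interval lay above 1 at 16.9% and below 1 at 14.6%. The marker lists are short, so single genes weigh heavily in their counts. The part of these marker differences in the results below was not tested.

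Promoter sequences of 5 genes in the spans are printed because they stand at the ends of the range described below. GREB1L had the highest hTBLC over primed ratio at a gene end, KHDRBS2 had a high pileup in both libraries, and CWH43 had the lowest ratio. AQP7B held a region in hTBLC alone and PROM2 in primed alone. The bases are from the RefSeq promoter table of build GRCh38.p14, from 250 bases before to 50 bases after the gene start, written 5′ to 3′ on the strand of the gene. Capitals mark GGGCGG, the core of the SP1 motif, and CCAAT, the NFY motif, on either strand. GREB1L is at chr18:21241982-21242281 on the plus strand, KHDRBS2 at chr6:62286176-62286475 on the minus strand, CWH43 at chr4:48986025-48986324, PROM2 at chr2:95274199-95274498 and AQP7B at chr2:94587061-94587360, all 3 on the plus strand.
GREB1L: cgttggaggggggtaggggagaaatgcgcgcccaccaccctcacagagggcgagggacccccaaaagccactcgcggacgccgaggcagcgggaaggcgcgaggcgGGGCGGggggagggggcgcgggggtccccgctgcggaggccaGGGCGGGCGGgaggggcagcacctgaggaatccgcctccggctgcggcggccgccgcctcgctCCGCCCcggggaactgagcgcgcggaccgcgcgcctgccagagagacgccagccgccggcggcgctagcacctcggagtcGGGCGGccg
KHDRBS2: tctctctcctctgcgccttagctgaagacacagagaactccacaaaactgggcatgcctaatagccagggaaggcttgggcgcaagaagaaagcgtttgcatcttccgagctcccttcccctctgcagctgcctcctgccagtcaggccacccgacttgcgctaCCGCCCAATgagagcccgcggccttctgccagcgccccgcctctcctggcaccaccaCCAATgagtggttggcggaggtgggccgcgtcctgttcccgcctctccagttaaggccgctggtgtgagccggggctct
CWH43: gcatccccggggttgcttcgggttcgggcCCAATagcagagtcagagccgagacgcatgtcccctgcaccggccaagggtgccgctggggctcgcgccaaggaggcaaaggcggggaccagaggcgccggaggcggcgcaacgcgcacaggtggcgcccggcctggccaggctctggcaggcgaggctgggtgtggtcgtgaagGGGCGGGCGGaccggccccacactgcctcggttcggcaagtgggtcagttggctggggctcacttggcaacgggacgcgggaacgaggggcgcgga
PROM2: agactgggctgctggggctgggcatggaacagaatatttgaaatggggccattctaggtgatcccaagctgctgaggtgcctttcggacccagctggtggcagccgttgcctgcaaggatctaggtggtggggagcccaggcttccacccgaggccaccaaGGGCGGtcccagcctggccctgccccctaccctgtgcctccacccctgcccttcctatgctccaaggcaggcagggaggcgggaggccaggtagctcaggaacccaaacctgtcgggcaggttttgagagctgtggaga
AQP7B: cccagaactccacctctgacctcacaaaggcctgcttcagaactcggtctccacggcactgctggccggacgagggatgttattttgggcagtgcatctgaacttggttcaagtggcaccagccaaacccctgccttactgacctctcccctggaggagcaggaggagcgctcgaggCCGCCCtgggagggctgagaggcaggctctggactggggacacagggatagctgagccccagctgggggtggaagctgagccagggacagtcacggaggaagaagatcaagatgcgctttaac
The GREB1L bases had a GC content of 78.67% with 43 CpG dinucleotides, and CWH43 had 72.33% with 31. KHDRBS2 had 63% with 17, PROM2 63.33% with 6 and AQP7B 60.67% with 9. The hTBLC region of AQP7B, at 94586088 to 94586385, ended before the printed bases began.

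The hTBLC library had more regions in the spans than the primed library, and more of them had no counterpart in the other library. The spans held 14.05 regions per Mb in hTBLC and 8.22 per Mb in primed, a ratio of 1.71. More than 5 Mb from the spans, the 17 chromosomes held 91.4 per Mb in hTBLC and 88.53 per Mb in primed, a ratio of 1.03. Within 5 Mb of a span the densities were 59.19 per Mb in hTBLC and 48.96 per Mb in primed, a ratio of 1.21. Regions covered 414.5 kb of the spans in hTBLC and 248.9 kb in primed, with median widths of 321 bp in hTBLC and 315 bp in primed. Of the hTBLC regions in the spans, 618 touched no primed region, which was 59.8% of them (56.75 to 62.7, Wilson 95% interval), against 39.2% of the hTBLC regions of the whole series. Of the primed regions in the spans, 180 touched no hTBLC region, which was 29.75% (26.25 to 33.5), against 37.3% of the primed regions of the whole series. Regions found in 1 library only were thus hTBLC-only in 77.4% (74.4 to 80.2) of cases in the spans and in 52.0% (51.8 to 52.3) outside them.

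Most of the library-only regions were weak. The pileup, the number of reads or fragments stacked at a summit, had a median of 11 among hTBLC-only and of 11 among primed-only regions of the spans. The excess of hTBLC-only regions was present in each weaker class of pileup. Below a pileup of 10, 204 regions were hTBLC-only and 50 primed-only, an hTBLC-only share of 80.3% (74.99 to 84.7), against 52.6% outside the spans. Between pileups of 25 and 49, 53 were hTBLC-only and 14 primed-only, a share of 79.1% (67.9 to 87.1), against 47.1% outside. At a pileup of 50 or more nearly every region was shared: 2 of 125 hTBLC regions and 1 of 62 primed regions were found in 1 library only. The number of such strong regions also differed, with 125 in hTBLC and 62 in primed inside the spans, against 33630 in hTBLC and 35338 in primed outside them. These pileups were not scaled for depth, for which the estimated ratio of hTBLC to primed was 1.095. Where the −log10 q had to reach 10, 78 regions were hTBLC-only and 28 primed-only, a share of 73.6% (64.5 to 81.05), against 47.1% outside the spans. That limit was set on the counted regions only, and an overlapping region of the other library with any q still made them shared.

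By chromosome, each of the 17 spans held more regions in hTBLC than in primed and hTBLC-only regions outnumbered primed-only ones in each. The 13 spans with at least 10 library-only regions each had an hTBLC-only share above that of the rest of the same chromosome, which ran between 42.3% and 57.4%, and in 10 of them the 95% interval lay wholly above it. Chromosome 1 stood furthest out, with 124 regions in hTBLC and 27 in primed, of which 99 were hTBLC-only and 2 primed-only, a share of 98.0% (93.1 to 99.5) against 51.4% on the rest of the chromosome. Without chromosome 1 the other spans had 519 hTBLC-only and 178 primed-only regions, a share of 74.5% (71.1 to 77.6). Chromosome 3 held the largest number of regions, 196 in hTBLC and 100 in primed, of which 133 were hTBLC-only and 36 primed-only, a share of 78.7% (71.9 to 84.2).

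High shares were also found on smaller sets. On chromosome 18, 34 regions were hTBLC-only and 6 primed-only, 85% (70.9 to 92.9), and on chromosome 12, 35 were hTBLC-only and 9 primed-only, 79.55% (65.5 to 88.85). On chromosome 20 the counts were 22 hTBLC-only and 6 primed-only, 78.6% (60.5 to 89.8), and chromosome 19 had 15 hTBLC-only and 4 primed-only, 78.95% (56.7 to 91.5). Chromosomes 6, 2, 5 and 4 followed with shares of 76.8%, 72.9%, 71.6% and 69.4%, and their intervals overlapped those of chromosomes 3, 12, 19 and 20. At the low end, 24 regions of chromosome 9 were hTBLC-only and 22 primed-only, 52.2% (38.1 to 65.9), close to the 48.9% of the rest of that chromosome. The intervals of chromosomes 8 (6 hTBLC-only, 4 primed-only) and 17 (11 hTBLC-only, 6 primed-only) also reached the value of the rest of the chromosome. Chromosomes 7, 10, 11 and 16 had too few library-only regions for a share, with 3, 9, 4 and 4 regions in hTBLC and 1, 6, 0 and 1 in primed.

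**Figure D1:**
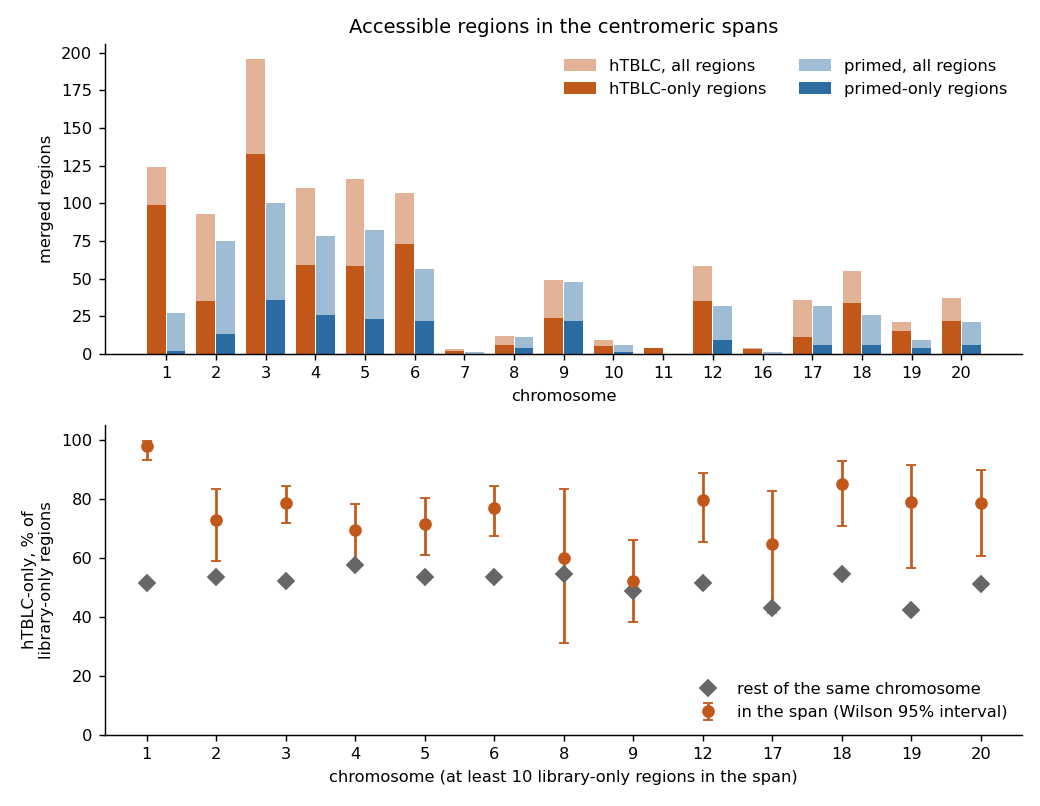
Upper panel, number of merged regions in each span (y axis) by chromosome (x axis), hTBLC left and primed right, with the darker part of a bar for regions found in that library only. Lower panel, hTBLC-only regions as a percentage of library-only regions in spans with at least 10 of them (circles, Wilson 95% interval for counting error) and on the rest of the same chromosome (diamonds). Each of the 17 spans has more hTBLC than primed regions, and chromosome 1 has the highest share in the lower panel, 98.0%.

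Regions were spread unevenly inside the spans. In each span the longest stretch without any RefSeq gene was marked off, 52.16 Mb in all, a split chosen after the values were seen. They held 215 regions in hTBLC and 74 in primed, or 4.12 per Mb in hTBLC and 1.42 per Mb in primed, a ratio of 2.905. Of these, 151 were hTBLC-only and 9 primed-only, a share of 94.4% (89.7 to 97.0). The remaining 21.44 Mb of the spans, which hold the 424 annotated genes, had 819 regions in hTBLC and 531 in primed, with 467 hTBLC-only and 171 primed-only, a share of 73.2% (69.6 to 76.5).

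Chromosome 1, whose whole span has no RefSeq gene, supplied 124 of the 215 gene-free regions in hTBLC and 27 of the 74 in primed. Its 3.4 Mb were shorter than the gene-free stretches of chromosomes 18, 5 and 17, at 5.547, 4.296 and 4.276 Mb. With chromosome 1 left out, the gene-free stretches held 91 regions in hTBLC and 47 in primed, with 52 hTBLC-only and 7 primed-only, a share of 88.1% (77.5 to 94.1). The regions on chromosome 1 were mostly weak, with a median pileup of 10 in hTBLC and 12 in primed. The strongest of them, at 123195504 to 123195951, had a pileup of 65 (50.2 to 82.85, exact Poisson 95% interval) in hTBLC and 29 (19.4 to 41.65) in primed. The strongest gene-free region of any chromosome, on chromosome 5 at 49630671 to 49631584, had 102 (83.2 to 123.8) in hTBLC and 53 (39.7 to 69.3) in primed. On chromosome 17 a gene-free region at 26603586 to 26604396 had 65 (50.2 to 82.85) in hTBLC and 26 in primed.

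**Figure D2:**
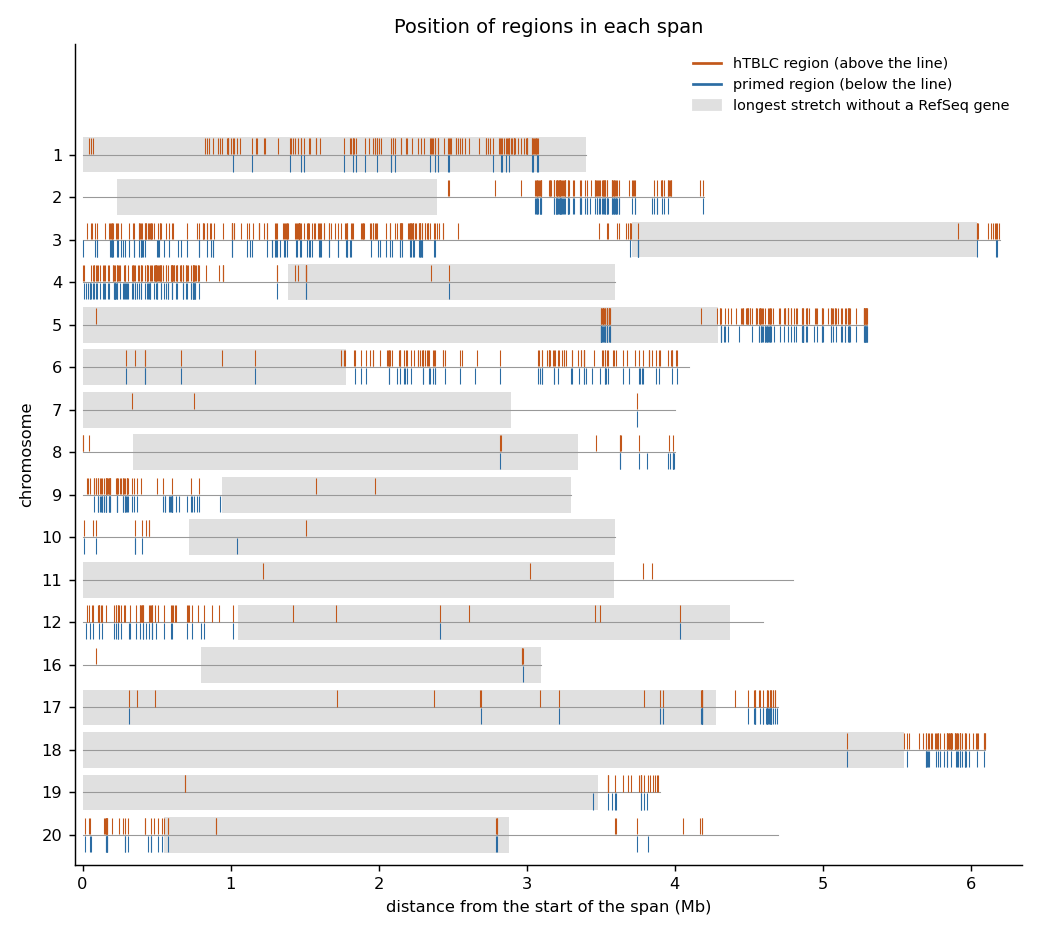
Position of each merged region (ticks) along the spans, as distance from the start of the span in Mb (x axis), 1 row for each chromosome, with hTBLC above and primed below the line and the longest stretch without a RefSeq gene shaded. Regions gather outside the shaded stretches on most chromosomes, while on chromosome 1, shaded throughout, 124 hTBLC regions stand above 27 primed regions.

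Summits between genes showed the larger hTBLC-only share. That class holds every region of the chromosome 1 span, 99 hTBLC-only and 2 primed-only. Its share without chromosome 1 was not computed. With the summit between annotated genes, 415 regions were hTBLC-only and 93 primed-only, 81.7% (78.1 to 84.8), against 55.9% for the same class outside the spans. With the summit inside an annotated gene, 203 were hTBLC-only and 87 primed-only, 70.0% (64.5 to 74.98), against 49.7% outside. Both classes of position in the spans lay above their counterpart in the rest of the genome.

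The excess did not stop at the edges of the spans. The hTBLC-only share was 77.4% in the spans and 66.05% (63.2 to 68.8) in the first 1 Mb beyond them. It was 63.1% (60.5 to 65.6) between 1 and 2 Mb, 61.2% (59.8 to 62.6) between 2 and 5 Mb and 56.7% (55.65 to 57.7) between 5 and 10 Mb. Farther out the values were 53.4% between 10 and 20 Mb, 51.55% between 20 and 40 Mb and 51.2% beyond 40 Mb. The number of chromosomes with more hTBLC than primed regions was 17 of 17 in the spans, 15 of 17 in the first 1 Mb, 12 of 17 between 20 and 40 Mb and 10 of the 15 that reach beyond 40 Mb. These distance classes were set after the values were seen.

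**Figure D3:**
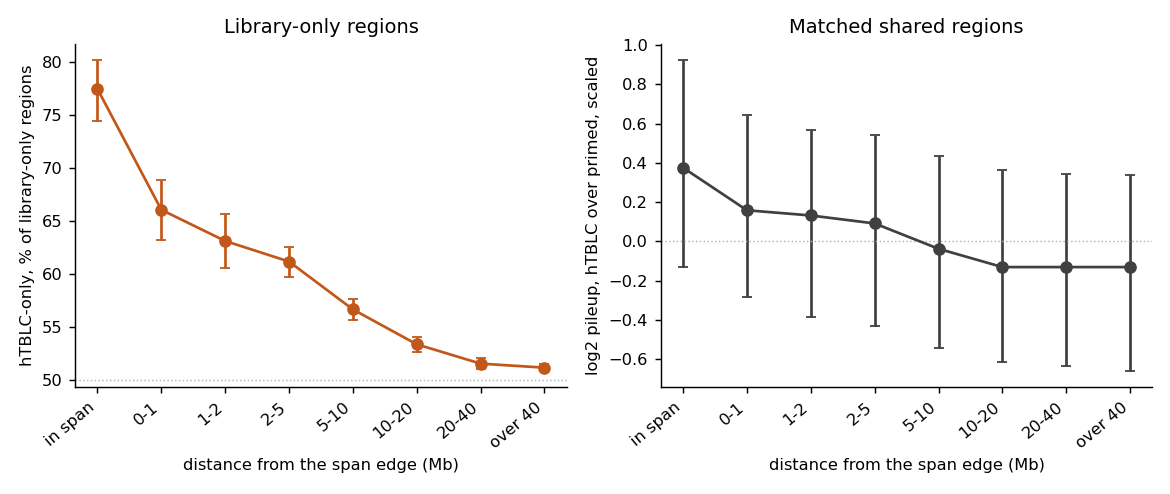
Left, hTBLC-only regions as a percentage of library-only regions by distance from the nearest span edge in Mb (circles, Wilson 95% interval; the y axis does not start at 0 and a dotted line marks 50%). Right, log2 of the hTBLC over primed pileup at matched regions, scaled for depth, by the same distance (circles, median; bars, quartiles over regions). Both series are highest in the spans, at 77.4% and 0.38, and lowest farthest away, at 51.2% and −0.13.

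In windows of 100 kb most of the spans held no region. Of the 736 windows in the spans, 520 held no region of either library, 211 held an hTBLC region and 157 a primed region. Windows with a region in hTBLC alone numbered 59, against 5 with a region in primed alone, and hTBLC-only regions were in the majority in 167 windows, against 19 with the opposite. Windows outside the spans were not counted, so these numbers have no background beside them. The window with the largest hTBLC excess, chr18:21200001-21300000, held 16 hTBLC and 4 primed regions, of which 11 were hTBLC-only and 0 primed-only; it contains the start of GREB1L. Next came chr1:124600001-124700000, with 9 hTBLC regions, all hTBLC-only, and 0 primed regions. Windows at chr3:88200001-88300000 and chr5:50500001-50600000 each had 10 hTBLC-only regions against 1 that was primed-only. The largest primed excess was on chromosome 9, where 3 adjoining windows between 42700001 and 43000000 had 1, 0 and 0 hTBLC-only regions and 5, 5 and 4 primed-only regions in order of position. Chromosome 9 was thus mixed inside its span: the overall share near 52.2% combined this stretch with others in which hTBLC-only regions were more frequent.

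Regions open in both libraries were compared by pileup, scaled for depth. A region was matched when 1 hTBLC region overlapped exactly 1 primed region, which held for 392 pairs in the spans. The median ratio of hTBLC over primed was 1.30 in the spans, or 0.38 on the log2 scale with quartiles of −0.13 and 0.93, against 0.913 at the 139131 matched regions outside. The ratio was above 1 at 276 of the 392 regions, 70.4%, against 43.4% outside. At least 2-fold higher in hTBLC were 88 regions, 22.45%, against 7.66% of the matched regions of the whole series. At least 2-fold lower in hTBLC were 17 regions, 4.34%, against 13.3% of the whole series. The exact binomial interval of the ratio lay above 1 at 127 of the 392 regions, 32.4%, against 11.2% of the whole series, and below 1 at 16, 4.08%, against 18% of the whole series.

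The ratio was higher where counts were larger and in the gene-free stretches. Among the 243 matched span regions with a summed pileup of at least 40 the median ratio was 1.51. Of these, 74 (30.45%) were at least 2-fold higher and 9 (3.704%) at least 2-fold lower in hTBLC. Outside the spans, the 85519 matched regions with a summed pileup of at least 40 had a median ratio of 0.9133. Of those, 9.002% were at least 2-fold higher and 15.66% at least 2-fold lower in hTBLC. In the gene-free stretches the median was 1.56 over 63 matched regions, of which 54 were above 1. By chromosome the median was above 1 on each of the 12 with at least 5 matched regions, and on 10 of the 12 when peaks of high local background were left out. Among these 12 the highest median, 1.705, was on chromosome 8, over only 5 regions, of which 3 were higher in hTBLC. The median was 1.63 on chromosome 17, where 23 of 24 regions were higher in hTBLC. On chromosome 18 it was 1.598, with 15 of 19 higher, and on chromosome 20 1.56, with 14 of 15 higher. The library-only regions of chromosome 17 had an hTBLC-only share of 64.7% (41.3 to 82.7), against 43.1% on the rest of that chromosome. On chromosome 2 the median was 1.43 over 54 regions, on chromosome 3 1.38 over 62 and on chromosome 1 1.34 over 25. Chromosome 9, with 1.065 over 21 regions, and chromosome 4, with 1.02 over 47, had medians close to 1.

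**Figure D4:**
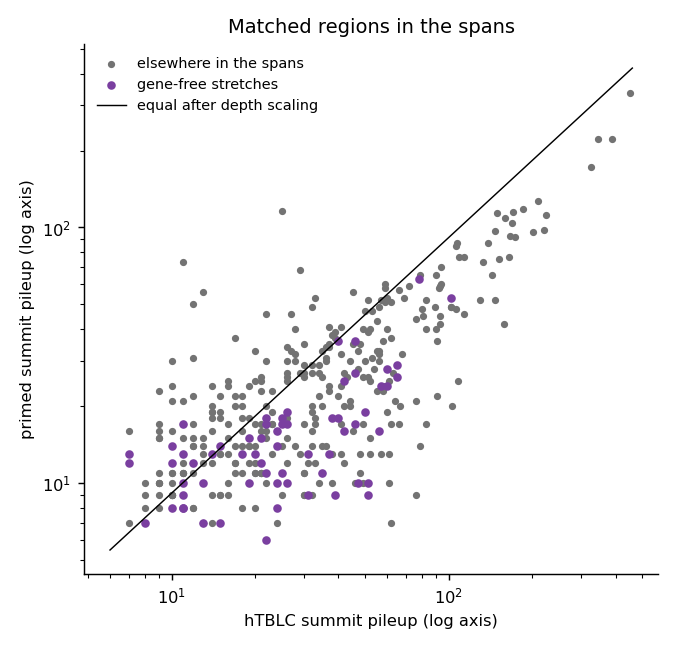
Summit pileup in hTBLC (x axis) and primed (y axis), both on log axes, at the 392 matched regions of the spans, with those in the gene-free stretches in purple. The line marks equality after scaling for depth; 276 regions lie below it, on the hTBLC side, 54 of them among the 63 gene-free regions.

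The local background under the peaks also differed at matched regions. In the spans it was higher in hTBLC by a median of 0.18 on the log2 scale after scaling, against 0.00 outside the spans. The median was 0.39 where the summed pileup was at least 40 and 0.20 in the gene-free stretches. The share of span peaks at the lowest background of their library was 52.9% in hTBLC and 53.6% in primed, against 38.8% in hTBLC and 34.7% in primed outside. The medians over span peaks were therefore at this lowest background in both libraries, and since the depth scaling was taken from it, they carry no comparison between the states. The part of the local background in the ratios was not tested.

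Single regions of extreme ratio were found on both sides. The largest ratio among regions with a summed pileup of at least 40 lay in FRYL at chr4:48536073-48536435, where the pileup was 62 in hTBLC and 7 in primed, a scaled ratio of 8.09 (3.70 to 20.95). On chromosome 3 at 90015840 to 90016358, between genes, the pileup was 76 in hTBLC and 9 in primed, a ratio of 7.71 (3.86 to 17.5). A gene-free region on chromosome 5 at 49612161 to 49612616 had 51 in hTBLC and 9 in primed, a ratio of 5.175 (2.52 to 11.96). At the other end, a region in KHDRBS2 on chromosome 6 at 61606614 to 61606813 had 11 in hTBLC and 73 in primed, a ratio of 0.14 (0.066 to 0.26). A region in the long non-coding gene LOC107986379 on chromosome 5, at 51226026 to 51226733, had 25 in hTBLC and 116 in primed, a ratio of 0.20 (0.12 to 0.31). KHDRBS2 thus contained a region far stronger in primed within its body, while the region at its start was stronger in hTBLC, as given below.

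Among the regions of 1 library only, that of highest fold enrichment in the authors' hTBLC list was intergenic. It stood on chromosome 3 at 88240006 to 88240695 and had a fold of 21.0 and a summit pileup of 84 (67 to 104). The other hTBLC-only regions of high fold were on chromosome 3 at 93852189, 89762135 and 91347966, with pileups of 49, 48 and 41, and on chromosome 2 at 94266735, with 46. In primed, the highest fold among primed-only regions, 14.8 in the authors' list, was at chr9:42851954-42852577, where the summit pileup was 41 (29.4 to 55.6). It lay in the stretch of chromosome 9 in which primed-only regions gathered. Of the others, 1 lay at PROM2 and 3 had a pileup of 36 each: on chromosome 3 at 89889422 and, inside the serotonin receptor gene HTR1F, at 87801367, and on chromosome 8 at 47167348. A region absent from a list can also be 1 of the ranks without a line, which numbered 327 of 300000 in hTBLC and 252 of 296005 in primed.

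Gene ends in the spans that were open in both libraries were mostly stronger in hTBLC. Of the 63 protein-coding genes with an end in a span, 35 had a region within 1 kb of an end in both libraries, 1 in hTBLC alone, 2 in primed alone and 25 in neither. Over the protein-coding genes of the whole series 2.95% were open in hTBLC alone and 3.34% in primed alone, so the 1 and 2 of 63 were near the background, while 39.7% of the span genes and 15.1% of all genes were open in neither. For span genes only the ends inside a span were read, whereas over the whole series both ends of each gene were read. A span gene with 1 end outside its span thus had less chance to count as open, and these gene-end shares are not fully alike. The 35 genes stood on 32 distinct regions, since CGGBP1 and C3orf38, ZNF654 and LOC128031834, and MRPS5 and ZNF514 share 1 region each. The median scaled ratio of hTBLC over primed was 1.56, with 31 of 35 above 1, against a median of 1.01 and 51.7% above 1 over the gene ends of the whole series. The interval lay above 1 at 26 of 35, 74.3%, against 16.9% of the whole series, and below 1 at 1 of 35, against 14.6%. By the promoter table, 27 of 44 protein-coding genes with a promoter in a span had a region in both libraries, 1 in hTBLC alone, 1 in primed alone and 15 in neither; over all protein-coding promoters 2.25% were open in hTBLC alone and 2.9% in primed alone. The median ratio at these 27 was 1.63, with 26 above 1, against 1.02 at the 11783 matched protein-coding promoters outside the spans, of which 6242 were above 1. Of the 27, 5 were at least 2-fold higher in hTBLC, against 2.05% of all promoters, and 0 at least 2-fold lower, against 4.17%.

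Several of the strong regions of both libraries were gene starts. KHDRBS2, an RNA-binding protein whose promoter is printed above, had 387 (349 to 427.5) in hTBLC and 222 (193.8 to 253) in primed, a ratio of 1.59 (1.35 to 1.89). SLAIN2, which binds growing microtubule ends, had 326 in hTBLC and 173 in primed, a ratio of 1.72 (1.43 to 2.08), and the neighbouring FRYL had 326 in hTBLC and 219 in primed, a ratio of 1.36 (1.14 to 1.62). The region shared by ZNF654 and LOC128031834 had 345 in hTBLC and 222 in primed, and the region shared by CGGBP1, which binds CGG repeats, and C3orf38 had 169 in hTBLC and 104 in primed.

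At least 2-fold higher in hTBLC were 5 of the 35 gene ends, on 4 regions, or 14.3% against 2.12% over the whole series. At least 2-fold lower were 0 of 35, against 4.79%. GREB1L, which is needed for kidney development, had 96 (77.8 to 117) in hTBLC and 32 (21.9 to 45.2) in primed, a ratio of 2.74 (1.82 to 4.23). The region at the start of MRPS5, a mitochondrial ribosomal protein, which is also at the far end of ZNF514, had 90 in hTBLC and 40 in primed, a ratio of 2.055 (1.40 to 3.06). At the promoter of ZNF514 itself the pileup was 76 in hTBLC and 29 in primed, a ratio of 2.39 (1.54 to 3.81). ALG10, a glucosyltransferase that completes the precursor of N-glycans, had 220 in hTBLC and 98 in primed, a ratio of 2.05 (1.61 to 2.63). TEKT4, a tektin of ciliary and flagellar microtubules, had 143 in hTBLC and 65 in primed, a ratio of 2.01 (1.49 to 2.74). These genes lie on chromosomes 18, 2 and 12, and their products have different functions. At its promoter window, KCNIP3, a calcium sensor, had 130 in hTBLC and 52 in primed, a ratio of 2.28 (1.64 to 3.21), while its highest gene-end region gave 1.66 (1.16 to 2.40).

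Other genes of the spans lay between these and a ratio of 1. PROS1, the anticoagulant protein S, had 165 in hTBLC and 77 in primed, 1.96 (1.48 to 2.60). WSB1, a substrate adaptor of a ubiquitin ligase, had 148 in hTBLC and 75 in primed, 1.802 (1.36 to 2.41). ROCK1, a kinase that regulates the actin cytoskeleton, had 166 in hTBLC and 93 in primed, 1.63 (1.26 to 2.125). EPHA3, an ephrin receptor, had 147 in hTBLC and 97 in primed, 1.38 (1.06 to 1.81). For ISL1, a LIM homeodomain transcription factor of motor neuron and heart progenitors, 106 in hTBLC and 85 in primed gave 1.14 (0.85 to 1.53), and for TEC, a cytoplasmic tyrosine kinase, 150 in hTBLC and 114 in primed gave 1.202 (0.94 to 1.55). The intervals of ISL1 and TEC included 1. ANKRD36C, FAHD2A and AQP7B belong to families with near-identical copies, so reads at their ends can come from a copy and their values are uncertain.

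Few gene ends were lower in hTBLC. PROM2, which encodes the membrane protein prominin 2, had no region at its start in hTBLC, against a region with a pileup of 83 (66.1 to 103) in primed, at 95274220 to 95275078 over most of the printed promoter. A second region inside PROM2, at 95277644 to 95277843, had 12 in hTBLC and 50 in primed, a ratio of 0.22 (0.11 to 0.42). Both regions of PROM2 were therefore absent or weaker in hTBLC, in a span whose matched regions had a median ratio of 1.43. CWH43, whose yeast counterpart remodels the lipid of GPI anchors, had 32 (21.9 to 45.2) in hTBLC and 49 (36.25 to 64.8) in primed, 0.60 (0.37 to 0.95). For ZAR1, a maternal factor of oocytes and zygotes, 28 in hTBLC and 40 in primed gave 0.64 (0.38 to 1.06), an interval that included 1. AQP7B, an aquaporin gene, had a region with a pileup of 23 (14.6 to 34.5) in hTBLC and none in primed, and CSNK2A2IP had none in hTBLC, against one with 11 (5.49 to 19.7) in primed.

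**Figure D5:**
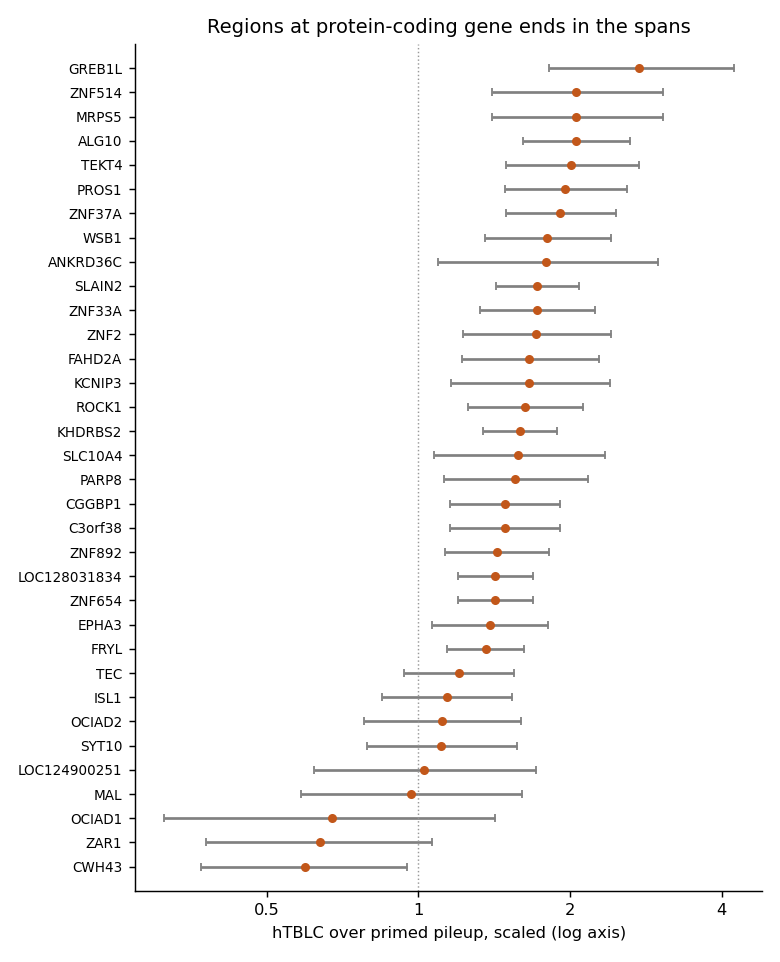
Ratio of hTBLC over primed pileup, scaled for depth (x axis, log scale; bars, exact binomial 95% interval for counting error), at the strongest region of the protein-coding gene ends open in both libraries, with 1 of the 35 not drawn. Genes that share a region have the same value. Most lie above 1, and the values run between GREB1L at 2.74 and CWH43 at 0.60.

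Gene families differed in whether they were open at all. The 6 zinc finger genes with an end in a span, ZNF2, ZNF33A, ZNF37A, ZNF514, ZNF654 and ZNF892, were open in both libraries, with gene-end ratios between 1.42 and 2.055, a median of 1.715 and intervals above 1 at all 6, and with 2.39 at the promoter of ZNF514. ZNF37A had 201 in hTBLC and 96 in primed, and ZNF33A had 173 in hTBLC and 92 in primed. None of the 13 olfactory receptor gene ends had a region in either library, and neither did the 1 POTE gene end. The lists for DEFB, FRG1 and SPATA31 genes had 0 protein-coding members with an end in the spans. Among 52 promoters of long non-coding genes, 15 were open in both libraries, 0 in hTBLC alone and 1 in primed alone, with a median ratio of 1.56 and 13 of 15 above 1. These are not independent of the protein-coding promoters, since the regions at GREB1L, ISL1, TEC and MAL were counted in both sets. No share over all long non-coding promoters was computed, so these counts have no background beside them. One shared region served LINC02987 and LINC00662 on chromosome 19, with 102 in hTBLC and 49 in primed, a ratio of 1.90 (1.34 to 2.73).

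The open promoters of the spans were rich in GC, and the others had a lower median. The median GC content was 66.7% at the 27 promoters open in both libraries and 37% at the other 17, against 62.7% over 15812 protein-coding promoters. Of the other 17, 10 were olfactory receptor promoters of chromosome 11, with 29.3% to 40%, so this gene cluster weighs on the lower median. Among the rest were HTR1F with 41.3%, AQP7B with 60.67%, PROM2 with 63.33% and LOC128966744 with 68.3%. On both strands, GGGCGG (SP1) was found in 52.3% of the 44 span promoters and in 58.5% of all promoters. CCAAT (NFY) was found in 47.7% of span promoters and 36.3% of all, CCGGAAG (ETS) in 4.55% and 14.2%, TGACGTCA (CREB) in 6.82% and 2.59%, and ATGGCGGC (YY1) in 2.27% and 4.50%. With 44 promoters these shares rest on few genes: 3 promoters held TGACGTCA, 2 held CCGGAAG and 1 held ATGGCGGC. A match of these short strings is a description of the sequence, and adjoining matches can overlap, as the capitals in the GREB1L and CWH43 promoters show.

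Genes for centromere and heterochromatin proteins lie outside the spans, apart from the regions above, and were read as a fixed list. Of 46 such genes, 37 had an entry in the promoter table and 36 of these were open in both libraries, with a median ratio of 1.085 and 23 above 1. None was past 2-fold in either direction. The interval lay above 1 at 6 of 36, 16.7%, against 17.5% of all promoters, and below 1 at 2, 5.56%, against 13.7%, so the number above 1 was near the background. The genes concerned are named for their roles alone. SUV39H1, an H3 lysine 9 methyltransferase, had 97 in hTBLC and 48 in primed, 1.85 (1.29 to 2.67). UHRF1, which couples DNA methylation to replication, had 52 in hTBLC and 28 in primed, 1.70 (1.052 to 2.79), and INCENP, of the chromosomal passenger complex, had 153 in hTBLC and 83 in primed, 1.68 (1.28 to 2.23). SMCHD1, KMT5C and CENPQ were the other 3, with 1.57, 1.31 and 1.40. The interval lay below 1 at CBX5, which encodes HP1 alpha, with 136 in hTBLC and 177 in primed, 0.70 (0.56 to 0.88), and at CENPP, with 66 in hTBLC and 87 in primed, 0.69 (0.495 to 0.97). For CENPA, the centromeric histone itself, 203 in hTBLC and 175 in primed gave 1.06 (0.86 to 1.30), and for CENPB, which binds alpha satellite DNA, 62 in hTBLC and 40 in primed gave 1.42 (0.94 to 2.16), both intervals including 1.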

How the data were processed

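Accessible chromatin of 1 hTBLC and 1 primed library of WIBR3 was analysed from the authors' peak lists. Per the submitters' processing notes, the tools were Bowtie2, Picard and MACS2 on hg38. Versions, the treatment of duplicates and of reads with many matches, the transposase shift and the calling threshold: not given in the sources used here. Lists were deposited per library, with no pooling. For each peak the authors deposited a fold ratio over the local background, a −log10 p-value and a −log10 q-value, a score and a summit offset in bp. The deposited score was not used.

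Each peak's whole pileup and local background were found from 2 deposited values, the fold (pileup plus 1 over background plus 1) and the −log10 p (Poisson upper tail), to within 0.001. The most frequent lowest background, 1.96 in hTBLC and 1.79 in primed, served as relative depth (ratio 1.095); total reads were not analysed here. The lists end at different lowest −log10 p, 2.83 in hTBLC and 2 in primed.

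Overlapping or touching peaks on chromosomes 1 to 22 and X were merged. A region was placed by the summit of its strongest peak and counted as shared with any overlap, 1 bp or more, across the libraries; a matched pair overlapped 1 to 1. Shares have Wilson, pileups exact Poisson and ratios exact binomial 95% intervals, which cover counting error only, since reads without molecular identifiers are not independent molecules. No test was made across the states. Genes and promoters came from RefSeq tables of GRCh38.p14, whose primary coordinates are those of hg38. Promoters were joined to genes by gene identifier. Symbols served to pick listed genes and to count each gene once for motifs and GC content. Not analysed here were satellite types, the CENP-B box and the base composition of peaks.

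Named were, by rule, the 10 highest pileups per library, the strongest region of each chromosome, the 5 library-only regions of highest fold, the 5 highest and 5 lowest ratios with a summed pileup of at least 40, genes with an end or promoter open in 1 library or of extreme ratio, the extreme 100 kb windows and listed families. Only some of these are printed, 1 gene is not reported here, and other genes were chosen after their values were seen. Members and lists were chosen with earlier results of these data known. Alternatives were thresholds on −log10 p and q, the 50000 strongest regions, other overlap rules, shortened spans, other scalings, other gene end windows and leaving out single chromosomes. Distance classes, gene-free stretches and pileup classes were added after the values were seen. The solver recovered 100% of 20000 simulated peaks. Python 3.11.15, numpy 2.4.6, scipy 1.17.1, pandas 2.3.3 and matplotlib 3.10.9 were used.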

Additional observations from a re-analysis of the deposited data

How the results depend on the processing

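No paired analysis was possible because each group has 1 library. Of 178 values under alternatives, 140 stayed inside the 95% interval of the reported value (for counts, within 1.5 times) and 38 did not. Only 59 of the 178 came from alternatives other than leaving out 1 chromosome. The others reran most of the same data, so the count of 140 is not a measure of robustness. The hTBLC-only share stayed above its value outside the spans and the median log2 ratio stayed positive under each alternative run. The cause of each shift was not tested. The −log10 q limits given here were set on both lists before regions were overlapped. The hTBLC-only share in the spans, 77.4%, was 71.1% at a −log10 q limit of 5, 83.85% for the 50000 strongest regions, 73.1% with reciprocal overlap of at least 50% and 72.2% without peaks of high local background; it ran between 74.5% and 79.0% when single chromosomes were left out. The shared share of hTBLC regions, 40.2%, was 50.4% and 51.2% at −log10 q limits of 5 and 10, 43.8% for the 50000 strongest, 34.4% with reciprocal overlap, 36.3% with spans shortened by 0.5 Mb at each end and 34.6% without high background (38.0% to 43.0% leaving out single chromosomes). The shared share of primed regions, 70.25%, was 77.2% at a −log10 q limit of 10, 80.2% for the 50000 strongest, 58.8% with reciprocal overlap, 74.7% when shared meant within 500 bp and 58.1% without high background (68.5% to 71.6%). The median log2 ratio, 0.38, was 0.51 unscaled, 0.51 when scaled to a median of 1 outside the spans and 0.26 without high background (0.34 to 0.44). The ratio of median local background, 1, is fixed by the scaling where both medians are at the lowest background; it was 1.19 and 1.18 at −log10 q limits of 5 and 10 and 1.095 unscaled (0.999 to 1.065). Region density in the spans was also divided by that of the rest of the chromosomes, which here includes the 5 Mb beside the spans. This ratio, 0.158 in hTBLC and 0.0959 in primed, was in hTBLC 0.138 and 0.1375 at −log10 q limits of 5 and 10. For the 50000 strongest regions it was 0.148 in hTBLC and 0.081 in primed. It was 0.121 in hTBLC and 0.0676 in primed with shortened spans, and 0.237 in hTBLC and 0.168 in primed against the 5 Mb beside the spans. Leaving out single chromosomes gave 0.14 to 0.169 in hTBLC and 0.0872 to 0.103 in primed. Chromosomes with an hTBLC-only share above their own rest, 13 of 13, were 8 of 9 at a −log10 q limit of 10 and 8 of 9 with shortened spans, 10 of 11 at a limit of 5 and 12 of 13 without high background. Chromosomes with a median ratio above 1, 12 of 12, were 10 of 12 without high background. Without replicates, the spread between cultures is unknown.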
